A study of Mus musculus with 11 samples.

Results

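The tumour necrosis factor (TNF) superfamily was examined through 10 genes, 8 ligands (Tnf, Ltb, Tnfsf9, Tnfsf10, Tnfsf12, Tnfsf13, Tnfsf13b and Tnfsf14) and the 2 TNF receptors (Tnfrsf1a and Tnfrsf1b). They were chosen by gene symbol out of 22068 symbols in the files, and all 10 had a mean of at least 1 RPKM (reads per kilobase of transcript, scaled to mapped reads) over the 11 libraries, the level needed for a test. RNA came from myeloid cells that had infiltrated subcutaneous tumours, enriched with CD11b antibodies and magnetic beads 4 days after a local dose of 15 Gy. All hosts were C57BL/6 mice. The WT group (n = 3) was wild type, with no Cre or floxed allele named in its labels. The TLR9KO group (n = 4) lacked Tlr9, a receptor for CpG DNA, and the STAT3KO group (n = 4) combined MxCre with a floxed Stat3, a transcription factor downstream of cytokine receptors. MxCre is driven by the interferon-inducible Mx1 promoter, so that deletion is not limited to myeloid cells, and the agent used to induce it is not named in the labels, nor are the tumour line and the age of the mice. Whether each replicate is its own animal is not stated, so p-values speak only for the spread among these libraries, and that spread may be technical.

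TNF superfamily ligands are mostly made as trimeric membrane proteins that can be cut from the cell surface, and they bind trimeric receptors of the TNF receptor superfamily. Receptors such as Tnfrsf1a carry a death domain and can signal to NF-kB or to cell death, while receptors such as Tnfrsf1b recruit TRAF adaptors directly. Macrophages and monocytes are a main source of Tnf, of the B cell survival factors Tnfsf13b (BAFF) and Tnfsf13 (APRIL), and of Tnfsf12 (TWEAK).

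The targeted genes were low where the labels say so. Stat3 RPKM ran from 15.7 to 19.7 with STAT3KO, against 70.7 to 76.1 (WT) and 58.5 to 68.8 (TLR9KO). Tlr9 RPKM ran from 3.53 to 7.70 with TLR9KO, against 20.5 to 41.6 (WT) and 19.2 to 61.1 (STAT3KO). Itgam, which encodes CD11b, averaged 300.8 RPKM in WT and 217.8 RPKM in STAT3KO (limma adjusted p = 0.0416; 0.0575 to 0.109 when any 1 library of these groups was left out). Other cells were also represented: the 5 melanocyte markers summed to 423 to 1370 RPKM across the WT libraries. In bulk RNA, fewer cells of a type and less RNA per cell cannot be told apart. The estimated depth was 30.0 to 53.45 M reads per library, which puts 34 to 209 reads behind Ltb, 72 to 669 behind Tnfsf13b and 10557 to 20790 behind Tnfrsf1b.

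In STAT3KO against WT, 3 ligands rose (Tnfsf12, Tnfsf13 and Tnfsf13b), and 1 ligand (Tnfsf14) and both receptors fell. These 6 of 10 members passed the limma test, beside 44.0% of the 10557 genes tested, with 3 higher beside 29.2% and 3 lower beside 14.8%. The same 6 were those whose STAT3KO and WT libraries did not overlap, beside 47.7% of all genes, again 3 higher beside 30.8% and 3 lower beside 16.9%. In TLR9KO against WT, 1 of 10 members, Ltb, passed, beside 30.6% of all genes, with none higher beside 20.0% and 1 lower beside 10.6%. At an unadjusted p under 0.05 these counts were 1 and 2, where the shares of all genes are at least the same 20.0% and 10.6%. Between TLR9KO and WT 2 of 10 did not overlap, beside 36.1%, namely Tnfsf10 higher (22.8%) and Ltb lower (13.3%). In STAT3KO against TLR9KO, 3 of 10 passed, beside 22.8% of all genes, with Tnfsf12 and Tnfsf13 higher beside 13.4% and Tnfsf14 lower beside 9.46%. There 4 of 10 did not overlap, beside 27.0%, namely the same 2 higher (16.4%) and Tnfsf14 and Tnfrsf1a lower (10.6%). The median log2 difference of the members was 0.19, 0.11 and 0.14 in these 3 comparisons, beside 0.09, 0.04 and 0.06 over all genes. Log2 differences here are of log2(RPKM + 1), which understates the change of low genes, and the comparisons share groups and are not independent of each other. The split of all called genes moved with the scaling: under median-ratio scaling 2167 were higher and 2286 lower in STAT3KO against WT, in place of 3083 and 1565, as the median of all genes moved from 0.09 to -0.02. The splits were then 1680 and 1544 in TLR9KO against WT (2107 and 1122 without it) and 919 and 1189 in STAT3KO against TLR9KO (1410 and 999). No called member changed sign under median-ratio scaling, quantile normalization or the correction for GC content and length.

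**Figure D1:**
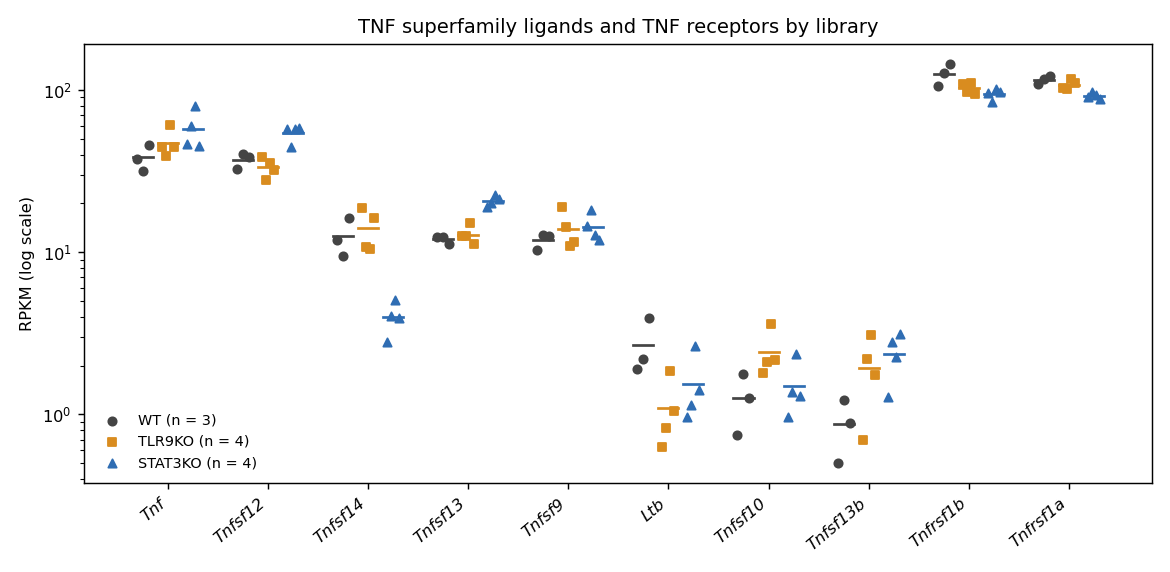
RPKM (log scale) of the 10 members in each of the 11 libraries. Points are libraries, set from left to right in the order of their replicate numbers, and horizontal lines are group means; the STAT3KO points of Tnfsf14 (2.80 to 5.07 RPKM) lie below those of both other groups, and those of Tnfsf12 and Tnfsf13 above.

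The order of the levels, which RPKM makes comparable between genes of different length, was led by the receptors in each group. Tnfrsf1b and Tnfrsf1a averaged 125.5 and 115.8 RPKM in WT and overlapped each other in all 3 groups. Tnf and Tnfsf12 followed, at 38.3 and 37.1 RPKM in WT, overlapping in WT and STAT3KO and lying apart in TLR9KO. In WT, Tnfsf14, Tnfsf13 and Tnfsf9 came next, at 12.6, 12.0 and 11.9 RPKM, with neighbours in this order overlapping. Ltb, Tnfsf10 and Tnfsf13b were lowest, at 2.67, 1.26 and 0.87 RPKM in WT. In STAT3KO, Tnfsf14 fell behind Tnfsf9 with no overlap, and Tnfsf13 lay above Tnfsf9 with no overlap.

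The receptors were both lower in STAT3KO than in WT. Tnfrsf1a, the death domain receptor found on most cells, was 109.37, 116.67 and 121.34 RPKM in WT, 102.80, 101.09, 116.71 and 110.65 RPKM in TLR9KO, and 90.68, 96.78, 93.49 and 87.56 RPKM in STAT3KO (replicates in order, here and below). The 4 STAT3KO libraries were the lowest of the 11. On average STAT3KO had 92.1 ± 3.94 RPKM (SD, n = 4) and WT 115.8 ± 6.03 RPKM (SD, n = 3), a ratio of 79.6% and a log2 difference of -0.33 ± 0.08 (SE; limma adjusted p = 0.00695), and it remained called in all alternatives tried. Against TLR9KO (107.8 ± 7.25 RPKM) the difference was -0.22 ± 0.07 with an adjusted p of 0.05004 in limma, not called, although no library overlapped. It was called in 7 of 19 alternatives, with an adjusted p of 0.0419 with no filter, 0.0435 with median-ratio scaling, 0.014 with quantile normalization, 0.0153 with array weights, 0.00676 with a GC and length correction (0.0207 with the replicate block too) and 0.0494 without TLR9KO replicate 1. TLR9KO and WT differed by -0.10 ± 0.08 (adjusted p = 0.351 in limma).

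Tnfrsf1b, the TNF receptor of leukocytes and endothelium, was 105.31, 126.52 and 144.63 RPKM in WT, 109.53, 97.57, 110.59 and 94.07 RPKM in TLR9KO, and 95.62, 84.43, 100.93 and 96.59 RPKM in STAT3KO. Every STAT3KO library was below every WT library, and TLR9KO overlapped both. Averages were 94.4 ± 7.03 RPKM for STAT3KO and 125.5 ± 19.7 RPKM for WT, a ratio of 75.2%, with a log2 difference of -0.40 ± 0.12 (limma adjusted p = 0.0164). That call was lost without WT replicate 3 (adjusted p = 0.0765) and with a correction for GC content and length (0.0595). For TLR9KO (102.9 ± 8.36 RPKM) against WT the difference was -0.27 ± 0.12, not called (limma adjusted p = 0.0922). It was called in 1 alternative, without WT replicate 1 (0.0365), and not in the other 17. Within libraries the RPKM of Tnfrsf1b was 0.963 to 1.19 times that of Tnfrsf1a in WT, 0.85 to 1.07 in TLR9KO and 0.872 to 1.10 in STAT3KO, so the balance of the 2 receptors overlapped between the groups.

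Promoters of the 2 receptors are shown first, chosen after their calls were known. RefSeq windows (250 bases before to 50 after the start site, build GRCm38.p6, whereas the files were made on mm9 per the submitters' processing notes) existed for 8 of the 10 members. They were searched on both strands for 4 motifs, STAT (TTCNNNGAA, in 8.3% of 32851 windows of all genes), interferon response (GAAA, any 2 bases, GAAA; 3.44%), AP-1 (TGANTCA, 7.81%) and NF-kB (GGG, any 2 bases, TTTCC; 1.63%). Capitals mark the matches. The Tnfrsf1a window (chr6:125349473-125349772, plus strand) holds a STAT match that starts at base -244 from the start site. The Tnfrsf1b window (chr4:145246821-145247120, minus strand) holds a STAT match at -181 and an interferon response match at -10.
Tnfrsf1a: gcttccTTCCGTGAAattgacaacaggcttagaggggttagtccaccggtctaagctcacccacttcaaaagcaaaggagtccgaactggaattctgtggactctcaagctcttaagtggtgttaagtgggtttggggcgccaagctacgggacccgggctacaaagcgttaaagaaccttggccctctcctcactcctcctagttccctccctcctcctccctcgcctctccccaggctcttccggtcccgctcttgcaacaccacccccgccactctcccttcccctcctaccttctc
Tnfrsf1b: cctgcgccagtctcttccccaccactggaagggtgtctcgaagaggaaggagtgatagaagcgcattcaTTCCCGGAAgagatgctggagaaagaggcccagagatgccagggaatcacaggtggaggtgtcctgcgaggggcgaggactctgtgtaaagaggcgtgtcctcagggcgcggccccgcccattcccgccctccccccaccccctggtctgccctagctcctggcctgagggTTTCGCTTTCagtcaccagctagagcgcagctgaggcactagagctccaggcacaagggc
A match is a description of letters and not a shown binding site. Tnfsf14, which fell most in STAT3KO against WT, holds no STAT match in its window, and Ltb, not called there, holds 1. Whether STAT3 acts on any of these windows was not tested.

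Tnf, the founding ligand of the family, was higher on average in both knockout groups, but not beyond the threshold. It was 37.49, 31.62 and 45.94 RPKM in WT, 44.50, 38.97, 61.10 and 44.67 RPKM in TLR9KO, and 46.41, 60.28, 79.36 and 44.92 RPKM in STAT3KO. Replicate 3 was the highest library of each group, and WT replicate 3 lay above STAT3KO replicate 4. Averages of 57.7 ± 16.0 RPKM for STAT3KO and 38.3 ± 7.20 RPKM for WT gave a log2 difference of 0.56 ± 0.21 (95% interval 0.09 to 1.02), with a limma adjusted p of 0.0518. Leaving out STAT3KO replicate 1, STAT3KO replicate 4 or WT replicate 3 brought that value to 0.0427, 0.0368 or 0.0418. Without STAT3KO replicates 2 or 3 it was 0.101 and 0.12, and without WT replicates 1 or 2 it was 0.115 and 0.169. Median-ratio scaling gave 0.147, and a GC and length correction gave 0.288 with a difference of 0.29. A limma fit with the replicate number as a block gave 0.00848 with a difference of 0.62. With both block and correction the values were 0.0806 and 0.35. TLR9KO (47.3 ± 9.57 RPKM) differed from WT by 0.29 ± 0.21 (limma adjusted p = 0.317; 95% interval -0.17 to 0.76). Neither Tnf nor Tnfsf10 held any of the 4 motifs in its window.

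Tnfsf12, whose product TWEAK binds Tnfrsf12a (Fn14), was 32.64, 40.30 and 38.49 RPKM in WT, 38.73, 28.05, 35.55 and 32.02 RPKM in TLR9KO, and 57.49, 44.23, 57.64 and 58.51 RPKM in STAT3KO. All STAT3KO libraries were above all others, and STAT3KO replicate 2 stood below its 3 fellows. STAT3KO averaged 54.5 ± 6.84 RPKM, which is 147% of WT (37.1 ± 4.00 RPKM; log2 difference 0.54 ± 0.13, limma adjusted p = 0.00751) and 162% of TLR9KO (33.6 ± 4.60 RPKM; 0.68 ± 0.12, limma adjusted p = 0.00381). With a GC and length correction neither passed (adjusted p = 0.0835 and 0.0566). TLR9KO and WT overlapped (-0.15 ± 0.13, limma adjusted p = 0.434).

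Tnfsf13, whose product APRIL binds the plasma and B cell receptors TACI (Tnfrsf13b) and BCMA (Tnfrsf17), was 12.42, 12.42 and 11.23 RPKM in WT, 12.65, 12.52, 15.04 and 11.20 RPKM in TLR9KO, and 19.00, 20.23, 22.53 and 21.14 RPKM in STAT3KO. The lowest STAT3KO library exceeded the highest of the other 7. With 20.7 ± 1.49 RPKM on average, STAT3KO reached 172% of WT (12.0 ± 0.687 RPKM; log2 difference 0.74 ± 0.10, limma adjusted p = 0.000241) and 161% of TLR9KO (12.8 ± 1.60 RPKM; 0.65 ± 0.09, limma adjusted p = 0.00103), and both calls were kept in all alternatives. Tnfsf12 and Tnfsf13 lie next to each other, and RefSeq annotates a read-through gene of the pair (Tnfsfm13), which is not among the symbols of the files, so that reads may be shared between them. The RPKM ratio of Tnfsf12 to Tnfsf13 was 2.63 to 3.43 in WT, 2.24 to 3.06 in TLR9KO and 2.19 to 3.03 in STAT3KO, with overlap.

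Tnfsf13b encodes BAFF, which also binds TACI and BCMA and, alone of the pair, the BAFF receptor Tnfrsf13c. It was 0.50, 1.22 and 0.89 RPKM in WT, 0.70, 2.19, 3.07 and 1.75 RPKM in TLR9KO, and 1.28, 2.78, 2.25 and 3.11 RPKM in STAT3KO. STAT3KO replicate 1 lay just above the highest WT library, and TLR9KO overlapped both groups. Averages of 2.35 ± 0.799 RPKM for STAT3KO and 0.87 ± 0.360 RPKM for WT gave a log2 difference of 0.83 ± 0.28 (limma adjusted p = 0.0346). This call was fragile: the adjusted p was 0.128 without WT replicate 1, 0.0743 without WT replicate 3, 0.0766, 0.0607 and 0.0877 without STAT3KO replicates 2, 3 and 4, 0.0656 with no filter on low genes, and 0.0561, 0.101 and 0.0929 with median-ratio scaling, quantile normalization and a GC and length correction. TLR9KO (1.93 ± 0.985 RPKM) differed from WT by 0.60 ± 0.28 (limma adjusted p = 0.133), and without TLR9KO replicate 1 by 0.83 (0.0215). That difference was called in 2 alternatives and not in the other 16.

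Beside the rise of these 3 ligands, the summed RPKM of 8 macrophage markers was 6970 to 10300 in STAT3KO against 3840 to 4610 in WT and 4150 to 6390 in TLR9KO. Of the 8, 6 rose in STAT3KO against WT in limma, and 0 in TLR9KO against WT, where 2 had an unadjusted p under 0.05. Over all genes 29.2% rose and 14.8% fell in STAT3KO against WT, and 20.0% and 10.6% in TLR9KO against WT. Apoe changed most in RPKM, from 635.5 (WT) to 3127 (STAT3KO), whereas Csf1r averaged lower in STAT3KO (334.3 and 283.0 RPKM). The Cd68 call was lost with median-ratio scaling, quantile normalization and the GC and length correction (limma adjusted p = 0.0867, 0.288 and 0.654). The 5 monocyte markers had summed RPKM of 293 to 584 (WT), 593 to 1160 (TLR9KO) and 769 to 2640 (STAT3KO). In STAT3KO against WT 2 of them rose (Ly6c2, 200.9 to 931.1 RPKM, and Plac8, 189.6 to 404.4 RPKM) and 1 fell (Vcan, 15.1 to 5.64 RPKM). Without WT replicate 1, among other settings, neither Plac8 (limma adjusted p = 0.175) nor Vcan (0.0972) passed, and without WT replicate 2 the values were 0.0870 and 0.111. Of the 6 neutrophil markers 5 were in the files. They summed to 46.8 to 426 RPKM in STAT3KO, against 29.4 to 59.2 RPKM in WT and 30.8 to 67.1 RPKM in TLR9KO. The highest sum was in STAT3KO replicate 2, the library with the lowest Tnfsf12 of its group. There S100a8, S100a9 and Retnlg were 194.3, 149.8 and 67.6 RPKM. None of the 4 tested passed in STAT3KO against WT (limma). Csf3r averaged 20.1 RPKM in WT and 21.2 RPKM in STAT3KO, and Cxcr2 1.14 and 0.81 RPKM. Fibroblast markers, of which 3 were tested and all 3 rose against WT in both knockouts in limma, had summed RPKM of 1.34 to 3.32 (WT), 8.36 to 36.9 (TLR9KO) and 12.0 to 26.4 (STAT3KO). Erythroid markers, of which 2 were tested and both fell against WT in both knockouts, had summed RPKM of 24.2 to 96.6 (WT), 0.34 to 1.69 (TLR9KO) and 1.52 to 31.2 (STAT3KO). Cd79b, a chain of the B cell receptor, averaged 0.447 RPKM in WT and rose to 3.10 RPKM in STAT3KO (limma adjusted p = 0.000623). The part of these shifts in the 3 differences was not tested.

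Tnfsf14, whose product LIGHT binds Tnfrsf14 (HVEM) and the lymphotoxin beta receptor Ltbr, showed the largest difference of the 10 members in STAT3KO against both other groups. It was 11.85, 9.52 and 16.31 RPKM in WT, 18.71, 10.77, 10.53 and 16.34 RPKM in TLR9KO, and 2.80, 4.04, 5.07 and 3.94 RPKM in STAT3KO. The highest STAT3KO library was well under the lowest of the other 7. STAT3KO averaged 3.96 ± 0.928 RPKM, or 31.5% of WT (12.6 ± 3.45 RPKM; log2 difference -1.44 ± 0.23, limma adjusted p = 0.000694) and 28.1% of TLR9KO (14.1 ± 4.09 RPKM; -1.58 ± 0.21, limma adjusted p = 0.00086), and both calls held in all alternatives. TLR9KO and WT overlapped (0.14 ± 0.23, limma adjusted p = 0.669). Set against Tnfsf12 in the same library, Tnfsf14 was at 0.236 to 0.424 of its RPKM in WT, 0.296 to 0.51 in TLR9KO and 0.0487 to 0.0913 in STAT3KO. Itgax (CD11c) averaged 169.4 RPKM in WT, 102.6 RPKM in TLR9KO and 37.4 RPKM in STAT3KO, and it carried most of the sum of 6 dendritic cell markers, which was 34.0 to 72.2 RPKM in STAT3KO, against 147 to 223 RPKM in WT and 83.6 to 162 RPKM in TLR9KO. It was the only 1 of the 4 tested markers lower in STAT3KO than in WT in limma; Batf3 averaged 11.4 and 11.9 RPKM, and Zbtb46 1.58 and 2.06 RPKM, in WT and STAT3KO. The part of Itgax-expressing cells in the fall of Tnfsf14 was not tested.

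The promoters of the ligands called in a comparison are shown next, save that of Tnfsf12, for which no window was searched. Tnfsf14 (chr17:57194132-57194431, minus strand) and Tnfsf13 (chr11:69685505-69685804, minus strand) each hold an AP-1 match, at -160 and -133. For Tnfsf13b the second of its 2 windows (chr8:10006383-10006682, plus strand) holds an AP-1 match at -127 and an interferon response match at -16. The first window (chr8:10006217-10006516, plus strand), not printed here, holds an AP-1 match at base 39 and no interferon response match. Ltb (chr17:35194257-35194556, plus strand), called in TLR9KO and described further on, holds a STAT match at -172, as both receptors do, and an NF-kB match at -87.
Tnfsf14: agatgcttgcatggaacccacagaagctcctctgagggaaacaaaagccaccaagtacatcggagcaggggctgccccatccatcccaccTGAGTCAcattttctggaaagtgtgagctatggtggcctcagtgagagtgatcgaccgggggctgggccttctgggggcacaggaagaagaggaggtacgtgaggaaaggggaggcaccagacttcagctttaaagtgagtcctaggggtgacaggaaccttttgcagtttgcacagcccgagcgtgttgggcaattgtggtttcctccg
Tnfsf13: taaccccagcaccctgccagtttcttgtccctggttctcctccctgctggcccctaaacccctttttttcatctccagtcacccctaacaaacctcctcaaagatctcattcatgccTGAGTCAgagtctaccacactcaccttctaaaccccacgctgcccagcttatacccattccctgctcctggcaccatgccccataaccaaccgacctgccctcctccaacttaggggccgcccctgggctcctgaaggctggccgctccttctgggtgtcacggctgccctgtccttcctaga
Tnfsf13b: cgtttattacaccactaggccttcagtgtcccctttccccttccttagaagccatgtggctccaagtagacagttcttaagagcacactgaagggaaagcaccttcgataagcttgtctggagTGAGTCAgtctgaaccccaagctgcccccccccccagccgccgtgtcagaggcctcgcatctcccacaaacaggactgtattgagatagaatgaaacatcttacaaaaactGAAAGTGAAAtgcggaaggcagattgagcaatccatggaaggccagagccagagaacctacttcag
Ltb: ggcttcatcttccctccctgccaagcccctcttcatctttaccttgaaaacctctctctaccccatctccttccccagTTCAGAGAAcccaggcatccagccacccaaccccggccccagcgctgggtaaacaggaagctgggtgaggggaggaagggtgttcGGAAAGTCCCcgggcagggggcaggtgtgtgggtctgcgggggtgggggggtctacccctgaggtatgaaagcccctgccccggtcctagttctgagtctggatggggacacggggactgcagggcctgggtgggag
The same AP-1 letters thus stand in the window of a ligand that fell and in those of ligands that rose, and nothing about binding follows from them.

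**Figure D2:**
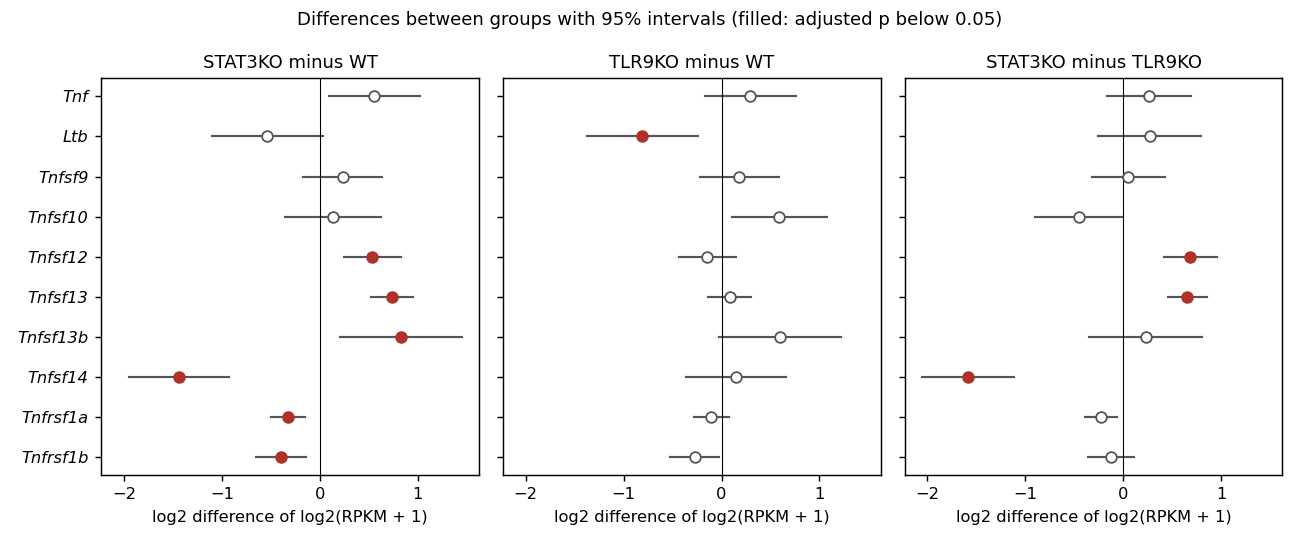
Log2 differences of log2(RPKM + 1) for the 10 members in the 3 comparisons, with 95% intervals from the limma fit (filled points have an adjusted p below 0.05). The called values run from -1.44 (Tnfsf14) to 0.83 (Tnfsf13b) in STAT3KO minus WT, while TLR9KO minus WT has 1 filled point, Ltb at -0.81.

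Ltb, whose product joins Lta in the membrane lymphotoxin that binds Ltbr, was the member called in TLR9KO. It was 1.90, 2.20 and 3.92 RPKM in WT, 0.63, 0.82, 1.86 and 1.05 RPKM in TLR9KO, and 0.96, 1.14, 2.63 and 1.41 RPKM in STAT3KO. All TLR9KO libraries were below all WT libraries, the closest pair being 1.86 and 1.90 RPKM, and STAT3KO overlapped both. TLR9KO averaged 1.09 ± 0.541 RPKM and WT 2.67 ± 1.09 RPKM, a ratio of 40.8% (log2 difference -0.81 ± 0.26, limma adjusted p = 0.0349). This call was lost without TLR9KO replicates 1, 2 or 4 (adjusted p = 0.0701, 0.0802 and 0.0653), without WT replicate 3 (0.147), with no filter (0.069) and with a GC and length correction (0.104). STAT3KO (1.54 ± 0.753 RPKM) differed from WT by -0.54 ± 0.26, not called (limma adjusted p = 0.113). That value was 0.0335 without STAT3KO replicate 3 and 0.397 without WT replicate 3. With a replicate block it was 0.00375, and 0.00663 with block and GC and length correction. For TLR9KO against WT these 2 fits gave limma adjusted p of 0.00316 and 0.0174.

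T cell marker RNA is given beside Ltb because both were highest in the same library of each group. The 7 markers summed to 6.61, 14.0 and 23.6 RPKM in WT, 3.33, 4.31, 10.7 and 6.05 RPKM in TLR9KO, and 3.54, 2.14, 8.86 and 3.93 RPKM in STAT3KO. In each group replicate 3 had both the highest marker sum and the highest Ltb, and it also had the highest Tnfrsf1b. The match was not complete: STAT3KO replicate 2 had a lower marker sum but more Ltb than replicate 1, and STAT3KO averaged more Ltb than TLR9KO (1.54 against 1.09 RPKM) with a lower median marker sum (3.73 against 5.18 RPKM). Cd4 averaged 1.69, 1.77 and 1.98 RPKM in WT, TLR9KO and STAT3KO and did not pass in any comparison (limma). Of the 3 T cell markers tested, Cd2 was lower in TLR9KO than in WT (log2 difference -0.81 ± 0.27, limma adjusted p = 0.0425), and Cd2 and Lck were lower in STAT3KO (-1.34 ± 0.27 and -1.18 ± 0.44, adjusted p = 0.00246 and 0.0462 in limma). The Cd2 call in TLR9KO was lost without any 1 of its 4 libraries or without WT replicate 2 or 3 (0.0508 to 0.126), and that of Lck without STAT3KO replicates 1, 2 or 4 or WT replicates 2 or 3 (0.0653 to 0.203). Natural killer cell markers, 6 in number, also peaked in replicate 3 of each group, at 16.5 RPKM in WT, 12.5 RPKM in TLR9KO and 19.0 RPKM in STAT3KO. The part of these cells in the Ltb and Tnfrsf1b differences was not tested.

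**Figure D3:**
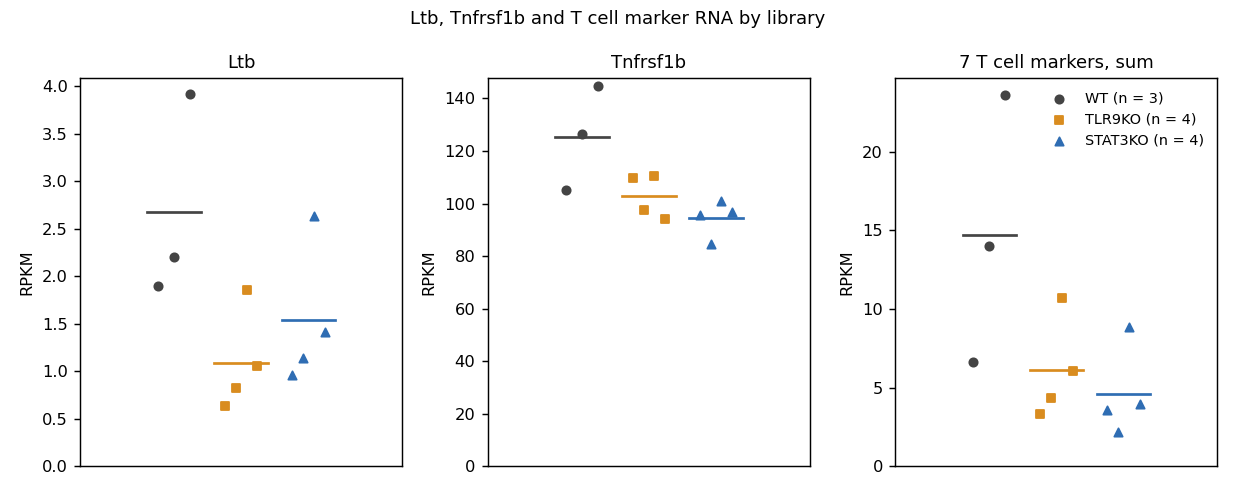
RPKM of Ltb, of Tnfrsf1b and of the sum of 7 T cell markers in each library, with group means as lines and replicates from left to right. Replicate 3 is the highest point of its group in each panel, from 1.86 to 3.92 RPKM for Ltb and from 8.86 to 23.6 RPKM for the marker sum.

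Tnfsf9 and Tnfsf10 did not pass in any comparison. Tnfsf9, the ligand of the co-stimulatory receptor Tnfrsf9 (CD137), was 10.37, 12.84 and 12.52 RPKM in WT, 18.92, 14.28, 10.87 and 11.55 RPKM in TLR9KO, and 14.47, 18.08, 12.82 and 11.90 RPKM in STAT3KO. The 3 groups overlapped, with means of 11.9 ± 1.34, 13.9 ± 3.65 and 14.3 ± 2.72 RPKM, and STAT3KO differed from WT by 0.24 ± 0.18 (limma adjusted p = 0.325; 95% interval -0.17 to 0.64). Tnfsf10 encodes TRAIL, a ligand that can trigger cell death and an interferon-responsive gene. It was 0.75, 1.77 and 1.27 RPKM in WT, 1.79, 2.10, 3.62 and 2.15 RPKM in TLR9KO, and 0.97, 1.37, 2.35 and 1.29 RPKM in STAT3KO. The TLR9KO libraries lay above all WT libraries, the nearest by 1.79 against 1.77 RPKM, and overlapped STAT3KO. The TLR9KO mean of 2.42 ± 0.819 RPKM against 1.26 ± 0.51 RPKM in WT gave a log2 difference of 0.59 ± 0.22 (limma adjusted p = 0.0651). That value was 0.0478 without TLR9KO replicate 1 and 0.0361 without WT replicate 2. Without TLR9KO replicates 2, 3 or 4 it was 0.0904, 0.148 and 0.0926, and without WT replicates 1 or 3 it was 0.247 and 0.129. Quantile normalization gave 0.17, and a GC and length correction gave 0.335 with a difference of 0.33.

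Between the knockout groups, the members not yet compared did not pass in limma. STAT3KO minus TLR9KO was 0.26 ± 0.20 for Tnf (adjusted p = 0.349; 95% interval -0.17 to 0.69), 0.27 ± 0.24 for Ltb (0.439) and -0.12 ± 0.11 for Tnfrsf1b (0.426). It was -0.45 ± 0.21 for Tnfsf10 (limma adjusted p = 0.134; 95% interval -0.905 to -0.00172), 0.23 ± 0.26 for Tnfsf13b (0.555) and 0.05 ± 0.17 for Tnfsf9 (0.842).

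The receptors that bind the member ligands (Tnfrsf1a and Tnfrsf1b not counted) formed a list of 11, of which 9 were tested. In STAT3KO against WT 3 fell, none rose and 6 did not pass, where 14.8% of all genes fell and 29.2% rose. These shares, here and beside every other list, depend on the scaling. Under median-ratio scaling 2167 of all genes rose and 2286 fell in STAT3KO against WT. The list counts and medians are from the fit without that scaling. The list median was -0.20 against 0.09 over all genes. Tnfrsf9, the receptor of Tnfsf9, was 40.09, 26.53 and 52.96 RPKM in WT, 69.88, 41.85, 20.64 and 25.82 RPKM in TLR9KO, and 6.37, 4.17, 5.20 and 3.21 RPKM in STAT3KO. Its STAT3KO libraries were far below the other 7, which overlapped each other. STAT3KO averaged 4.74 ± 1.36 RPKM and WT 39.9 ± 13.2 RPKM, a ratio of 11.9% (log2 difference -2.81 ± 0.37, limma adjusted p = 0.000225), and against TLR9KO the difference was -2.70 ± 0.34 (limma adjusted p = 0.000647). So the receptor fell where its ligand Tnfsf9 did not pass the test.

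Tnfrsf22 and Tnfrsf23, mouse decoy receptors for TRAIL, were the other 2 that fell in STAT3KO. Tnfrsf22 averaged 0.985 ± 0.143 RPKM against 2.11 ± 0.482 RPKM in WT (-0.64 ± 0.14, limma adjusted p = 0.00457), and Tnfrsf23 averaged 5.94 ± 1.61 RPKM against 15.6 ± 7.41 RPKM (-1.18 ± 0.43, limma adjusted p = 0.0446). The Tnfrsf23 call was lost without any 1 of STAT3KO replicates 1 to 4 (adjusted p = 0.0554, 0.0555, 0.102 and 0.0887) and without WT replicate 1 or 3 (0.111 and 0.173). The receptors of LIGHT did not pass: Tnfrsf14 averaged 13.2 RPKM in WT and 16.8 RPKM in STAT3KO (adjusted p = 0.426 in limma), and Ltbr 60.9 and 52.7 RPKM (0.112). TWEAK's receptor Tnfrsf12a averaged 11.8 RPKM in WT and 13.9 RPKM in STAT3KO (0.297), and TACI (Tnfrsf13b) 6.67 and 7.43 RPKM (0.511). The other receptors of APRIL and BAFF, Tnfrsf17 and Tnfrsf13c, averaged 0.05 and 0.15 RPKM in WT and were not tested. In TLR9KO against WT none of the 9 passed in limma, beside 30.6% of all genes (list median -0.11), and 1, Ltbr, had an unadjusted p under 0.05.

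Of 14 further receptors of the superfamily 7 were tested. In STAT3KO against WT 1 rose, 3 fell and 3 did not pass (median -0.23), where 29.2% of all genes rose and 14.8% fell. Tnfrsf11a (RANK, the receptor that drives osteoclast formation) rose from 7.63 ± 1.44 to 15.6 ± 1.65 RPKM (log2 difference 0.95 ± 0.11, limma adjusted p = 0.00013). Tnfrsf21 (a death domain receptor), Tnfrsf18 and Tnfrsf4 (co-stimulatory receptors of T cells) fell by 0.45, 1.10 and 0.92 on the log2 scale (limma adjusted p = 0.00257, 0.0056 and 0.0233). Tnfrsf4 and Tnfrsf18 were, like the T cell markers, highest in replicate 3 of each group, and the Tnfrsf4 call was lost without STAT3KO replicates 1, 2 or 4 (0.0517, 0.0583 and 0.0532) or WT replicate 3 (0.106). In STAT3KO against TLR9KO Tnfrsf11a rose and Tnfrsf21 fell. None of the 7 passed in TLR9KO against WT in limma, beside 30.6% of all genes, and 1, Tnfrsf4, had an unadjusted p under 0.05. Of 10 further ligands in the files 1, Tnfsf8 (CD30 ligand), reached a mean of 1 RPKM, and it passed in no comparison (limma), with no unadjusted p under 0.05.

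**Figure D4:**
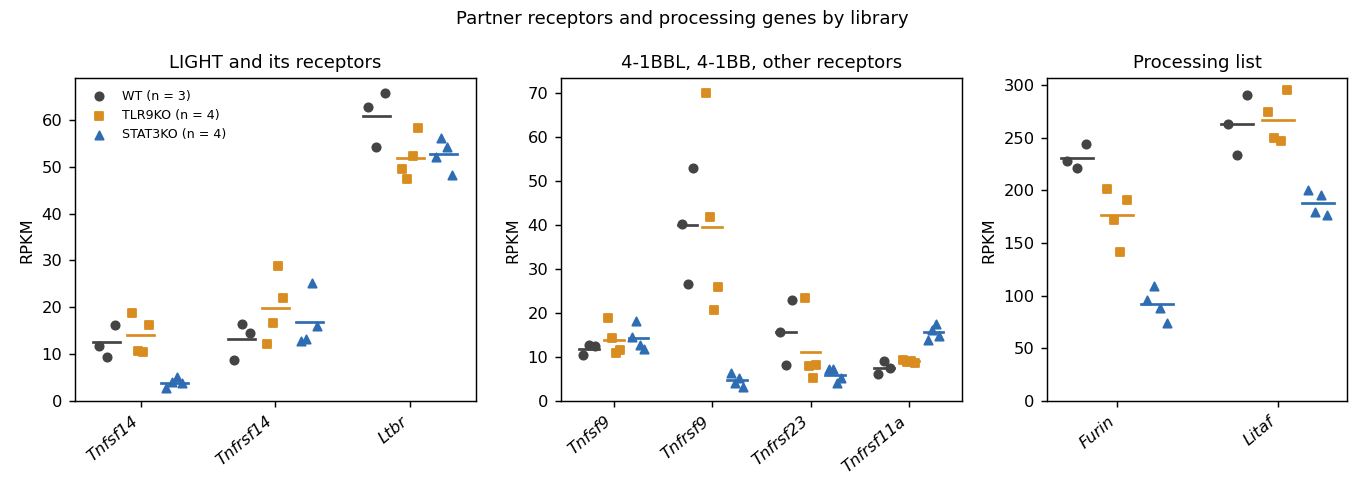
RPKM by library for LIGHT and its receptors (left), for Tnfsf9, its receptor Tnfrsf9 (4-1BB) and other receptors (middle), and for 2 genes of ligand processing (right), with group means as lines. The STAT3KO points of Tnfrsf9 lie between 3.21 and 6.37 RPKM, below the other 7, while those of Tnfsf9 lie among the rest.

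Among genes that process or shed the ligands 6 of the 7 in the files were tested. In STAT3KO against WT 2 fell and none rose, where 14.8% of all genes fell and 29.2% rose. Furin, the protease that cuts the precursors of TWEAK, APRIL and BAFF, was 227.74, 221.22 and 243.94 RPKM in WT, 200.85, 172.27, 141.28 and 190.49 RPKM in TLR9KO, and 95.56, 109.72, 88.05 and 73.97 RPKM in STAT3KO. The 3 groups did not overlap each other, with averages of 91.8 ± 14.9 RPKM for STAT3KO and 231.0 ± 11.7 RPKM for WT, a ratio of 39.8% (log2 difference -1.33 ± 0.15, limma adjusted p = 7.04e-05). Litaf, named for a proposed role in Tnf transcription, fell from 262.6 ± 28.4 to 188.0 ± 11.5 RPKM (-0.48 ± 0.10, limma adjusted p = 0.00345). Adam17, the sheddase of Tnf and its receptors, averaged 34.8 RPKM in WT and 32.6 RPKM in STAT3KO and did not pass (limma adjusted p = 0.602). The list median was -0.15. Furin and Litaf also fell in STAT3KO against TLR9KO. In TLR9KO against WT none of the 6 passed in limma, beside 30.6% of all genes, while Furin had an unadjusted p under 0.05.

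Of 12 genes that control Tnf mRNA stability or translation, 1 rose and 3 fell in STAT3KO against WT (median -0.15). Over all genes 29.2% rose and 14.8% fell. Zc3h12a (Regnase-1, an RNase for cytokine mRNAs) fell from 31.7 to 15.4 RPKM (log2 difference -1.002 ± 0.177, limma adjusted p = 0.00114), and the translational repressor Tial1 rose from 5.62 to 7.64 RPKM (0.39 ± 0.09, limma adjusted p = 0.00598), which was 0.16 (0.0667) with a GC and length correction. Zfp36l1, a decay factor, and Mapkapk2, the kinase that inactivates the related Zfp36, fell by 0.49 and 0.32 on the log2 scale (limma adjusted p = 0.0343 and 0.0345), and both calls were lost when STAT3KO replicates 1, 2 or 4 or WT replicates 2 or 3 were left out (0.0512 to 0.132). In TLR9KO against WT Tial1 and Tia1 rose (0.51 ± 0.09 and 0.40 ± 0.10, limma adjusted p = 0.00275 and 0.0116; median 0.11), and neither passed with a GC and length correction (0.138 and 0.794); without WT replicate 3 the value of Tia1 was 0.054. In STAT3KO against TLR9KO 6 fell and none rose (median -0.27), where 9.46% of all genes fell and 13.4% rose. Among the 6 were Zfp36l1 (-0.77 ± 0.15) and Zc3h12a (-0.65 ± 0.16), with limma adjusted p of 0.00611 and 0.0171. Without STAT3KO replicate 4 that of Zc3h12a was 0.0511.

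The 30 genes of the TNF receptor signalling complexes were all tested. In STAT3KO against WT 3 rose, 3 fell and 24 did not pass, with a median of -0.01, where 29.2% of all genes rose and 14.8% fell. Ripk3, the kinase of necroptosis, fell from 49.1 ± 1.16 to 30.6 ± 2.48 RPKM (log2 difference -0.67 ± 0.11, limma adjusted p = 0.000823). Spata2, an adaptor of the deubiquitinase CYLD, and Rbck1, a subunit of the linear ubiquitin ligase, fell by 0.37 and 0.38 on the log2 scale (limma adjusted p = 0.0026 and 0.0186), and Tab1 rose by 0.33 ± 0.10 (0.0165). The Tab1 difference was 0.22 with median-ratio scaling and with quantile normalization (adjusted p = 0.094 and 0.107), and its adjusted p was 0.0595 without WT replicate 2. Without WT replicate 1 the value of Rbck1 was 0.0597, and without STAT3KO replicates 1 or 4 it was 0.0518 and 0.0525; with a GC and length correction it was 0.053. In TLR9KO against WT 6 rose and 1 fell (median 0.05), where 20.0% of all genes rose and 10.6% fell. Chuk, which encodes the NF-kB kinase IKK alpha, was 7.12, 8.89 and 8.00 RPKM in WT and 12.39, 12.26, 12.35 and 12.52 RPKM in TLR9KO, against 7.64 to 9.04 RPKM in STAT3KO. Its difference of 0.58 ± 0.09 from WT (limma adjusted p = 0.00103) was 0.18 (0.106) with a GC and length correction. Birc2, an inhibitor of apoptosis that ubiquitinates Ripk1, rose by 0.68 ± 0.14 (limma adjusted p = 0.00519; 0.0593 with that correction). In STAT3KO against TLR9KO 2 rose and 5 fell (median -0.10), where 13.4% of all genes rose and 9.46% fell. Among the 5 were Chuk (-0.49 ± 0.08) and Ripk3 (-0.52 ± 0.10), with limma adjusted p of 0.0021 and 0.00602.

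Of 18 genes that TNF is known to induce, 1 rose, 6 fell and 11 did not pass in STAT3KO against WT, with a median of -0.45. Over all genes 29.2% rose and 14.8% fell. The Tnf mRNA itself averaged higher without passing. Ier3, an early response gene, was 311.67, 222.44 and 351.41 RPKM in WT, 219.24, 192.76, 159.55 and 216.54 RPKM in TLR9KO, and 106.52, 125.31, 126.21 and 85.61 RPKM in STAT3KO. The 3 groups did not overlap. Ier3 fell in STAT3KO by 1.40 ± 0.18 on the log2 scale (limma adjusted p = 0.000221), and the cytokine Il6 fell by 1.66 ± 0.27 (0.000812), from 5.37 ± 1.75 to 1.02 ± 0.491 RPKM. Tnfaip6, a hyaluronan-binding protein, and Ptgs2, the inducible prostaglandin synthase, fell by 1.19 ± 0.24 and 1.42 ± 0.30 (limma adjusted p = 0.00254 and 0.00325). Most of these genes also answer to other signals, so the list does not measure TNF activity alone.

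In TLR9KO against WT 2 of the 18 rose and 2 fell (median 0.12), where 20.0% of all genes rose and 10.6% fell. Il6 fell by 1.02 ± 0.27 on the log2 scale (limma adjusted p = 0.0167; 0.057 without WT replicate 2) and Ier3 by 0.57 ± 0.18 (0.0382), while Tnfaip8 rose by 0.68 ± 0.15 (0.00717) and the chemokine Cxcl10 by 1.33 ± 0.43 (0.0366). The Ier3 call was lost without TLR9KO replicates 2 or 3 or WT replicates 1 or 3 (0.0756, 0.0908, 0.126 and 0.152). That of Cxcl10 was lost without TLR9KO replicates 2, 3 or 4 or WT replicates 1 or 3 (0.0802, 0.0849, 0.0749, 0.157 and 0.0676). In STAT3KO against TLR9KO 6 fell and none rose (median -0.54), where 9.46% of all genes fell and 13.4% rose. The 6 were led by Ptgs2, which averaged 16.1 ± 6.51 RPKM against 71.2 ± 14.3 RPKM (log2 difference -2.14 ± 0.28, limma adjusted p = 0.000739).

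**Figure D5:**
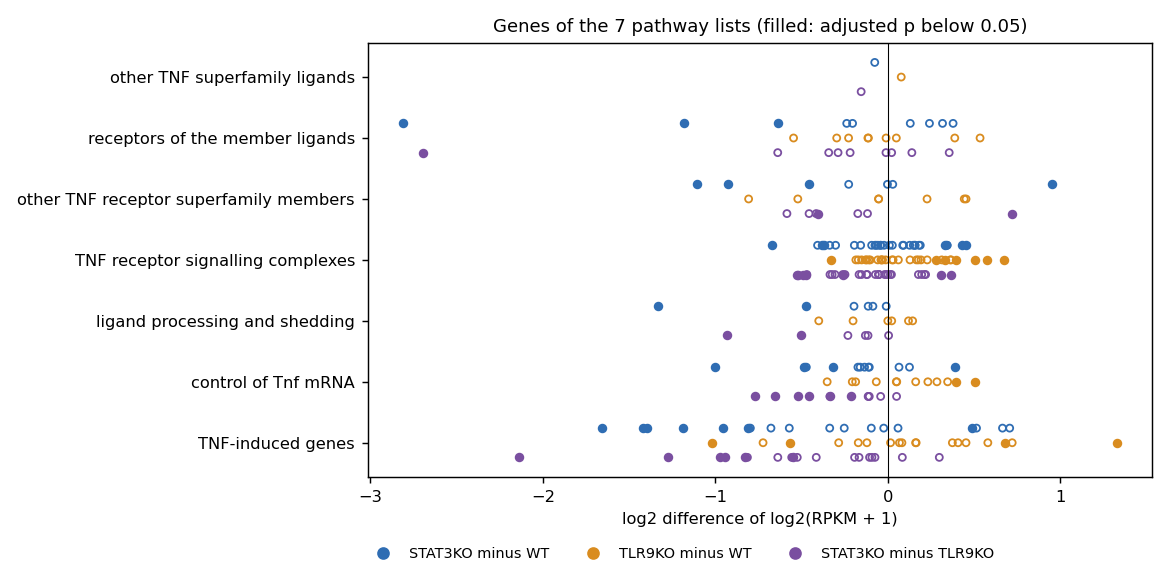
Log2 differences of log2(RPKM + 1) for the tested genes of the 7 pathway lists in the 3 comparisons (colours; filled points have a limma adjusted p below 0.05). The leftmost points are Tnfrsf9 at -2.81 and -2.70 in the receptor list, and in STAT3KO minus WT 6 of the filled points among the TNF-induced genes lie below 0 and 1 above.

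The genes whose levels followed each member most closely over the 11 libraries were listed by Pearson's r of log2(RPKM + 1), as a description, since all points share the 3 groups and their depths. Tnfsf13 was followed by Clic1 (r = 0.975), Slc46a3 (0.972) and Mfap1b (0.971), and Tnfsf12 by Slc16a10 (0.953), Ptpra (0.951) and Cd300lb (0.945). Tnfsf14 was followed by Il4ra (0.977), Niacr1 (0.966) and Il13ra1 (0.946), of which Il4ra and Il13ra1 encode chains of the interleukin-4 and interleukin-13 receptors. Tnfrsf1a was followed by Fam160b2 (0.953), Ripk3 (0.947) and Arid5a (0.935). For Tnfrsf1b these genes were Pdcd1 (0.931), Ctla4 (0.926) and Adora2a (0.918), and for Ltb Il2rb (0.949), Ptprcap (0.937) and Adap1 (0.932). Pdcd1, Ctla4 and Il2rb encode receptors best known from lymphocytes. Tnfsf10 was followed by the interferon-inducible Ifi47 (0.947), by Srd5a3 (0.945) and by Cd69 (0.943), and Tnfsf13b by Klra2 (0.947), Pus7l (0.945) and Gmfg (0.938). Tnf was followed by Prr14 (0.917), Ppp1r15a (0.907) and Traf2 (0.895), and Tnfsf9 by Vim (0.929), Il7r (0.90) and Atf1 (0.898). Among the members themselves r was 0.841 between Tnfsf12 and Tnfsf13, 0.717 between the 2 receptors and -0.901 between Tnfsf13 and Tnfsf14.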

How the data were processed

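RNA of 11 libraries was measured by RNA sequencing. The deposited files hold 1 RPKM value per gene symbol, per the file headers, and the header of TLR9KO replicate 4 names no unit. Per the submitters' processing notes, CASAVA 1.7, TopHat 1.3.1, Bowtie 0.12.7, Partek and the build mm9 were used. The gene models, the handling of strand and of reads shared by overlapping genes are, in the sources used here, not given.

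From these values, log2(RPKM + 1) was fitted with limma 3.58.1 in R 4.3.3 for the 10557 genes that averaged 1 RPKM or more (3 group means, all 11 libraries, eBayes with trend). Tests were two-sided, with Benjamini-Hochberg adjustment over all genes tested and a threshold of 0.05. Errors are SD for RPKM values and SE for log2 differences. The fit was tested on simulated data with known changes. Depth was estimated from the RPKM steps of microRNA genes, of which 75.0% to 97.1% per library were whole reads within 0.15, and reads behind a gene use its longest GENCODE M21 transcript; they cover counting error only. Tables, motif searches and plots used Python 3.11.15, pandas 2.3.3, numpy 2.4.6 and matplotlib 3.10.9.

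The members, gene lists, motifs and tests were chosen with earlier results of these data known. Named were all 10 members, Stat3 and Tlr9, up to 4 called genes of each of 7 pathway lists by smallest p, and for each member the 3 genes of highest correlation. List genes named as not passing were chosen after their values were seen. Alternatives were another pseudocount (0.1), other filters, median-ratio and quantile scaling, array weights, eBayes without trend, only the groups compared, a GC and length correction, a replicate block and leaving out each library. Same-numbered libraries did not deviate together in each pair (correlations from -0.291 to 0.492), so numbers were not used as pairs. In STAT3KO with WT, TLR9KO with WT and STAT3KO with TLR9KO, replicate 1 had 0.339, 0.181 and 0.492. Replicate 2 had -0.181, -0.222 and -0.0403, and replicate 3 had -0.0694, -0.291 and 0.446. Replicate 4 of the knockouts had -0.0168. The labels do not say what the numbers mark, and whether they mark a shared batch was not tested.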

Additional observations from a re-analysis of the deposited data

Results flagged for a closer look

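Groups of 4 libraries were screened for a value far from the other 3 (a gap to the nearest, as a share of the range, above Dixon's 95% critical value), in 82 groups from 41 genes. Chance flags about 1 in 20 groups, and 5 were found. Tnfsf12 was 44.23 RPKM in STAT3KO replicate 2, against 57.49 to 58.51 RPKM in the other 3. In the same library Tia1 was 2.21 RPKM, against 2.85 to 2.95 RPKM. Tnfrsf22 was 1.2 RPKM in STAT3KO replicate 1, against 0.91 to 0.92 RPKM. In TLR9KO replicate 1, Tnfrsf23 was 23.32 RPKM, against 5.23 to 8.11 RPKM, and Tnfrsf21 was 44.96 RPKM, against 35.29 to 36.41 RPKM.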

How the results depend on the processing

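Of the member values under all alternatives, 490 kept direction and side of the threshold, 22 gained a call, 22 lost one and 16 changed sign, in each case of a difference that was not called. For STAT3KO minus WT these were Tnfsf9 with the GC and length correction (-0.107) and with the replicate block and that correction (-0.0369), and Tnfsf10 with quantile normalization (-0.0311) and with the correction (-0.0139); leaving out 1 library put Tnfsf10 between -0.0356 (WT replicate 1) and 0.296. For TLR9KO minus WT they were Tnfsf13 with the correction (-0.00861), Tnfrsf1a with block and correction (0.00604) and Tnfsf14, between -0.0233 (without WT replicate 2) and 0.336. For STAT3KO minus TLR9KO they were Tnfsf9 with median-ratio scaling (-0.00834), the correction and block plus correction (both -0.14), and without 1 library Tnfsf9, from -0.0574 (STAT3KO replicate 2) to 0.203, and Tnfsf13b, from -0.00759 (TLR9KO replicate 1) to 0.412. The cause was not tested. Members called in STAT3KO minus WT numbered 3 with the correction (Tnfsf13, Tnfsf14 and Tnfrsf1a) and 5 to 7 when 1 library was left out. In TLR9KO minus WT they numbered 0 with no filter and with the correction, 3 with array weights, 2 with the block and 0 to 2 without 1 library. In STAT3KO minus TLR9KO they numbered 5 with array weights, 4 with no filter, median-ratio scaling or quantile normalization, and 3 to 4 without 1 library. Genes called in TLR9KO minus WT fell from 3229 to 1779 with the correction (832 higher, 947 lower, against 2107 and 1122) and to 1169 with block and correction, and ran from 1985 (without WT replicate 1) to 3588 without 1 library. Those in STAT3KO minus TLR9KO rose from 2409 to 3807 with array weights and ran from 1577 (without TLR9KO replicate 4) to 2377, and those in STAT3KO minus WT ran from 3667 to 4409. Quantile normalization gave 2281 higher and 2141 lower, 1734 and 1501, and 1164 and 1207 in the 3 comparisons (knockouts against WT first); the correction gave 1915 and 2108 in STAT3KO minus WT, and the block with it 1673 and 1875, and in TLR9KO minus WT 550 and 619. In STAT3KO minus TLR9KO the correction gave 1077 and 1094, and 852 and 922 with the block. With a replicate block 4074, 2662 and 1879 genes and 8, 2 and 3 members were called in the 3 comparisons, Tnf and Ltb being the members gained against WT in STAT3KO (adjusted p = 0.00848 and 0.00375) and Tnfsf10 in TLR9KO (0.0251). Libraries correlated best with their own number in 2 of 6, 0 of 6 and 4 of 8 cases, so the labels' numbers are not taken as pairs. Depth limits Ltb and Tnfsf13b most.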
